A study of Mus musculus with 4 samples.

Results

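Class II microglia were the brain cells in which reads of Trem2, a lipid-sensing receptor of microglia and some macrophages, came together with reads of all 3 of Cd74, H2-Aa and H2-Ab1. Cells were selected on their measured reads: at least 1 read of each of these 4 genes and no read of Cd3e (T cells), Cd79a (B cells) or Ccr2 (monocytes). This rule took 225 of 13820 kept cells, namely 134 of 2321 and 28 of 4499 cells in Abi3-/- mice 1 and 2, and 42 of 3796 and 21 of 3204 cells in Abi3+/+ mice 1 and 2. They were set against 2 other classes, 10542 Trem2-positive cells without a read of Cd74, H2-Aa, H2-Ab1, Cd3e, Cd79a or Ccr2 (class II-negative microglia) and 107 cells with reads of 2 or more of the macrophage genes Ccr2, Clec10a, F13a1, Flt3, Kcne3 and Cd163 (macrophages, with cells selected as class II microglia taken out). Because reads of these genes chose the cells, their levels are given only as a description.

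The study asked what deletion of Abi3, an actin-regulating gene with a variant linked to the risk of late-onset Alzheimer's disease, does in brains that build up amyloid. The mice were males aged 9 months and all carried the 5XFAD transgenes, which are driven in neurons and cause amyloid plaques, so that no mouse was free of amyloid. Mice with the genotype 5XFAD;Abi3-/- (n = 2) had a null deletion of the whole Abi3 locus from a C57BL/6N line, and 5XFAD;Abi3+/+ mice (n = 2) had both copies, on a background mixed with SJL in which every mouse was heterozygous for the SJL variant of Trem2. Cells came from the right hemisphere without cerebellum or olfactory bulb, after cold enzymatic dissociation and removal of myelin, and were read with a targeted panel of 397 immune genes. Abi3 itself was not among the panel's genes, so that genotype rests on the labels. One library was made per mouse, with 61058416 and 102612276 reads in the kept cells of the Abi3-/- mice and 82557555 and 78817636 in those of the Abi3+/+ mice. All values of the 4 mice below are in this order: Abi3-/- mice 1 and 2, then Abi3+/+ mice 1 and 2.

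MHC class II molecules present peptides taken up from outside the cell to CD4+ T cells. H2-Aa and H2-Ab1 encode the α and β chains of the I-A molecule and H2-Eb1 the β chain of I-E. The product of Cd74, the invariant chain, holds the groove closed on the way to the endosome, where H2-DM, encoded by H2-DMa and H2-DMb2, loads the peptide. Dendritic cells, B cells and macrophages at the borders of the brain carry these molecules at rest, whereas microglia in the parenchyma carry little of them until they are activated, for example by interferon-γ or near amyloid plaques. The genes share an upstream module, the X and Y boxes, on which the transactivator CIITA assembles.

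The promoters of H2-Aa and H2-Eb1 are printed here since H2-Aa was one of the genes that chose the cells and H2-Eb1 was not, and both carry the same pair of motifs. Sequences are from RefSeq (GRCm38.p6, which is mm10, the build in the submitters' notes), 250 bases before to 50 bases after the start of the gene, on the gene's own strand. Capitals mark GCAACT, a part of the X box, and CTGATTGG, which holds the Y box (an inverted CCAAT).
H2-Aa, chr17:34287774-34288073, minus strand: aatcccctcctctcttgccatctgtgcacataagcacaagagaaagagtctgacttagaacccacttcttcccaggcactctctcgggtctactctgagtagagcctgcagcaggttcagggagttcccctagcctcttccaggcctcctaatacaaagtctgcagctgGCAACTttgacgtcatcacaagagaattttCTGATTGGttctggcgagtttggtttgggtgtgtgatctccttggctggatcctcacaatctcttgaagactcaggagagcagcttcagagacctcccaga
H2-Eb1, chr17:34305617-34305916, plus strand: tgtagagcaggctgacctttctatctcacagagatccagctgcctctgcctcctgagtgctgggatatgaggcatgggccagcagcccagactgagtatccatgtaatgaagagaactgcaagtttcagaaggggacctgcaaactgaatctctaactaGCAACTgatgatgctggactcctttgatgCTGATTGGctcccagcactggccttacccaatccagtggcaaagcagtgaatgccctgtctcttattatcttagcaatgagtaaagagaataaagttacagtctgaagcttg
The motif CTGATTGG began 51 bases before the start of H2-Aa and 62 bases before that of H2-Eb1, and GCAACT began 30 and 29 bases further upstream. On either strand, CTGATTGG was found in 4.1% and GCAACT in 10.9% of the 32851 promoters of this length. The pair in this order, with starts 10 to 30 bases apart (a window chosen after both sequences were seen), was found in 5 of them (0.0152%), which belonged to H2-Aa, H2-Eb1, H2-Eb2, Gstz1 and Tigd3. The promoters of H2-DMa, H2-DMb2 and H2-Ob held neither motif in this window, and those of H2-Ab1 and Cd74 were not analysed here. The 32851 promoters did not cover every chromosome, so the genes with the pair may not be all there are. H2-Aa (chr17:34282744-34287823), H2-Ab1 (chr17:34263227-34269418) and H2-Eb1 (chr17:34305867-34316674) are neighbours in the class II region.

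The cells were checked against the markers of microglia and of other cell types, since Trem2 is not particular to microglia. C1qa, a complement gene that resident microglia carry at high levels, had a read in every class II microglial cell of the 4 mice at 10000 reads per cell, against 44.4, 20.5, 26.1 and 41.7% of macrophages. Cx3cr1, the fractalkine receptor, had a read in 91, 71.4, 85.4 and 52.4% of class II microglia, 94.8, 90.8, 94 and 77.3% of class II-negative microglia and 27.8, 30.8, 13 and 16.7% of macrophages. Selplg (PSGL-1), another gene high in resting microglia, had a read in 97, 89.3, 87.8 and 57.1% of class II microglia and in 99.4, 98.7, 99 and 98.4% of class II-negative microglia. For both genes the share of class II microglia was lowest in Abi3+/+ mouse 2. At full depth, the macrophage genes were read in 3, 2, 6 and 12 class II microglia. This was 2.24, 7.14, 14.3 and 57.1% of them, against 0.123, 0.293, 0.313 and 0.602% of class II-negative microglia. In Abi3+/+ mouse 2 the selected cells therefore went partly against the name microglia, and results are also given without the cells that carry a macrophage gene or that spent over 10% of their reads on class II genes. Both ways of leaving cells out were chosen after the data were seen.
Defining genes of T cells, B cells and neutrophils were mostly at 0 in class II microglia, whereas 2, 4, 2 and 2 of 7 macrophage and monocyte genes were. Of 10 T cell genes, 7 to 9 were at 0 in each mouse, Cd3d, Cd3g, Trbc1 and Trbc2 in all 4, and no cell had 2 or more of them. The rule itself sets Cd3e of this list and Cd79a of the B cell list to 0. The summed level of the T cell list was 41.8, 85.8, 26.8 and 244 CPM (reads of the genes in 1000000 reads of the cells), against 16.9, 25.2, 26.4 and 31.1 in class II-negative microglia, lower in the latter in 4 of 4 mice. In both Abi3+/+ mice Cd4 was the only gene of this list with a read in class II microglia, and macrophages had reads of Cd4 in 3 mice. Of 10 B cell genes, 7 or 8 were at 0, Ms4a1, Igkc and Pax5 in all 4 mice. The summed level of the B cell list was nevertheless 4034, 1929, 4237 and 3511 CPM, against 4493, 3826, 5197 and 4919 in class II-negative microglia. Of 6 neutrophil genes, 4 or 5 were at 0 in each mouse, S100a9 in all 4. The summed level of that list was 61.9, 349.7, 29.1 and 1388 CPM, against 35.4, 3348, 81.4 and 144 in class II-negative microglia, with Abi3+/+ mouse 2 the highest of the class II values. The part of these reads in the results below was not tested. Of 9 dendritic cell genes, Ccr7, Ccl17, Ccl22 and Dpp4 were at 0 in all 4 mice, and what was read of this list was mostly Fscn1, which the class II-negative microglia also carried. The summed level of the 7 macrophage and monocyte genes was 243, 328, 2243 and 3426 CPM, against 32.2, 73.1, 17.5 and 86.8 in class II-negative microglia. Both sums hold no Ccr2, which the rule sets to 0, and macrophages, which were chosen by 6 of the 7 genes, are not compared.

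**Figure D1:**
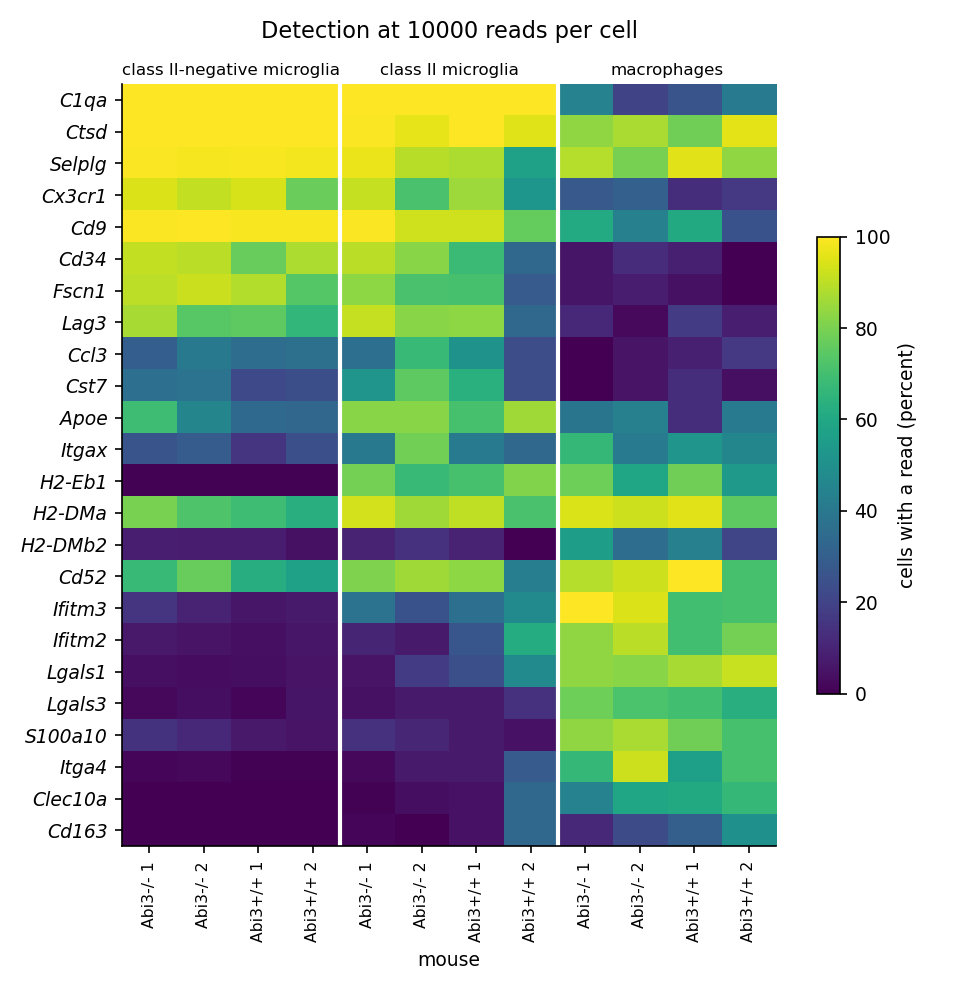
Percent of cells with a read of each gene (rows, colour from 0 to 100%) in class II-negative microglia, class II microglia and macrophages of each mouse (columns), with every cell thinned to 10000 reads. Class II microglia shared C1qa, Ctsd and Cd9 with class II-negative microglia and H2-Eb1 with macrophages, and Abi3+/+ mouse 2 (last column of the middle block) had a read of Clec10a and of Cd163 in 33.3% of its cells.

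Free RNA in the wells gives stray reads, so the rule was tried on cells that should lack class II. All 3 class II genes were read in 0 of 293 T cells (median 16897 reads) and in 0 of 117 neutrophils (median 26931 reads), against 263 of 13160 Trem2-positive cells (2.0%, median 21376 reads). By mouse there were 93, 68, 65 and 67 T cells and 5, 87, 6 and 19 neutrophils. The neutrophils thus say little about Abi3-/- mouse 1, which held most of the class II microglia. Cd74 had a read in 1.37% of T cells and 1.71% of neutrophils, and in 13.7% of Trem2-positive cells. Trem2 had a read in 8.19% of T cells and in 12.8% of neutrophils, so that a read of Trem2 alone did not separate these cells. Class II microglia were read more deeply than class II-negative microglia, with medians of 30723, 33850.5, 28869 and 33970 against 23724, 18527, 19162 and 22273 reads per cell. Shares of cells with a read of C1qa, Cx3cr1, Selplg or H2-Eb1 by cell class are therefore given at 10000 reads per cell. So are shares by the number of class II genes read. That depth was not reached by 1 class II microglial cell and 397 class II-negative microglia. Shares with a macrophage gene or Spp1, and those on either side of the division by class II reads, are at full depth. The part of depth in those shares was not tested. Between 17 and 42 cell barcodes were shared by pairs of libraries, and 1 class II microglial cell had a barcode also found in another library.

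The levels of the genes that chose the cells are given as a description. Median reads of Cd74 per class II microglial cell were 284, 238, 218 and 1242. Those of H2-Aa were 358, 129.5, 270.5 and 4229, and those of H2-Ab1 were 145, 81.5, 100 and 1223. Median reads of Trem2 were 1285, 1446, 1502 and 607, against 1158, 788, 970 and 1101 in class II-negative microglia. Abi3+/+ mouse 2 was highest of the 4 for each class II gene and lowest for Trem2.
Just inside the threshold, the lowest read number of any of the 3 class II genes in a selected cell was 10 or 11 in every mouse, and a minimum of 50 reads of each gene left 102, 18, 29 and 17 cells. Just outside it were 85, 123, 61 and 15 Trem2-positive cells with a read of 2 of the 3 class II genes, most of which lacked H2-Aa or H2-Ab1. A further 306, 976, 286 and 269 cells had a read of 1 of them. Another 38 cells had all 3 class II genes and Trem2 but were kept out by a read of Ccr2 (36 cells) or Cd79a (2 cells), and 91 cells had all 3 class II genes and no read of Trem2.

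The share of reads that a cell spent on Cd74, H2-Aa and H2-Ab1 varied widely from cell to cell. Its median was 2.74, 1.56, 1.64 and 25.8% of a cell's reads, from 0.21, 0.433, 0.204 and 0.41% in the lowest to 40.5, 42, 41.1 and 42% in the highest cell. The medians of 3 mice lay below 3%, whereas in Abi3+/+ mouse 2 more than 10 of the 21 cells were above 10%. Divided at 10%, a line drawn after the values were seen, 10, 4, 5 and 12 cells lay above it, 31 of 225 in all. Of these 31 cells, 18 carried a macrophage gene, against 5 of the 194 cells at or below 10%. By mouse, those above the line with a macrophage gene were 2 of 10, 2 of 4, 4 of 5 and 10 of 12. At or below it they were 1 of 124, 0 of 24, 2 of 37 and 2 of 9. Most of the 18 cells came from Abi3+/+ mouse 2, and in Abi3-/- mouse 1 most cells above 10% carried no macrophage gene.
Genes that the division did not use are given for both sides of it as a description, at full depth, over 4 to 12 cells a mouse above 10%. Median Trem2 reads were 152, 140.5, 277 and 299.5 above and 1309.5, 1715, 1694 and 1576 at or below 10%, whereas macrophages with a Trem2 read had medians of 390.5, 108, 142 and 175. Selplg was read in 70, 50, 40 and 41.7% of the cells above 10% and in 99.2, 95.8, 91.9 and 77.8% of those at or below it, lower above 10% in each mouse. Cx3cr1 was read in 60, 75, 80 and 50% and 93.5, 70.8, 86.5 and 55.6%, with Abi3-/- mouse 2 going the other way. Cst7, a cystatin gene that marks microglia near plaques, was read in 5, 0, 0 and 0 cells above 10% and in 65, 21, 26 and 5 cells at or below it. In Abi3-/- mouse 1 the shares with Cst7 were near each other (50% and 52.4%), and in the other 3 mice no cell above 10% had a read of it. H2-Eb1 was read in all 31 cells above 10% and in 77.4, 62.5, 67.6 and 55.6% of the others.

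**Figure D2:**
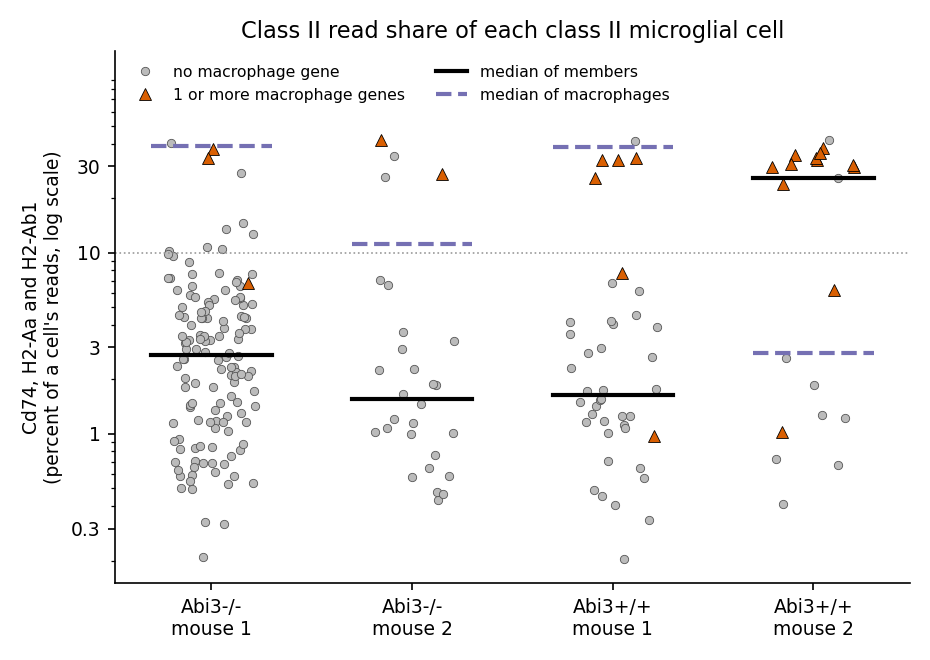
Percent of each class II microglial cell's reads on Cd74, H2-Aa and H2-Ab1 (log scale) in each mouse, with 1 point per cell, triangles for cells with a read of 1 or more macrophage genes, solid bars for the median of class II microglia, dashed bars for the median of macrophages and a dotted line at 10%. In Abi3+/+ mouse 2, 12 of 21 cells lie above 10%, and 10 of those 12 carry a macrophage gene.

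Whether loss of Abi3 changed how many class II microglia were present was asked over mice. Class II microglia were 5.77% of kept cells in Abi3-/- mouse 1 (95% exact binomial interval 4.86 to 6.80%) and 0.622% in Abi3-/- mouse 2 (0.414 to 0.898%). They were 1.11% in Abi3+/+ mouse 1 (0.799 to 1.49%) and 0.655% in Abi3+/+ mouse 2 (0.406 to 1.00%), and these intervals cover counting error alone. Abi3-/- mouse 1 stood far above the other 3, and Abi3-/- mouse 2 was the lowest of all, so that the genotypes overlapped. Without the cells that carry a macrophage gene the shares were 5.64, 0.578, 0.948 and 0.281%, and without those above 10% class II reads 5.34, 0.533, 0.975 and 0.281%, with Abi3+/+ mouse 2 the lowest in both. The means were 3.20% ± 3.64 (SD, n = 2) in Abi3-/- and 0.881% ± 0.319 (SD, n = 2) in Abi3+/+ mice, with an exact permutation p of 1 (two-sided; the smallest p that 2 against 2 mice allow is 0.33). Without Abi3-/- mouse 1 the difference of Abi3-/- minus Abi3+/+ turned from 2.32 to -0.26 percentage points, so its direction rested on that mouse.
The median share of class II reads within these cells, which comes from the genes that chose them, is described without a test. It was 2.74, 1.56, 1.64 and 25.8%, and without the cells that carry a macrophage gene 2.64, 1.33, 1.52 and 1.27%. Abi3+/+ mouse 2 thus had the highest median over all class II microglia and the lowest without those cells, when Abi3-/- mouse 1 was the highest.

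**Figure D3:**
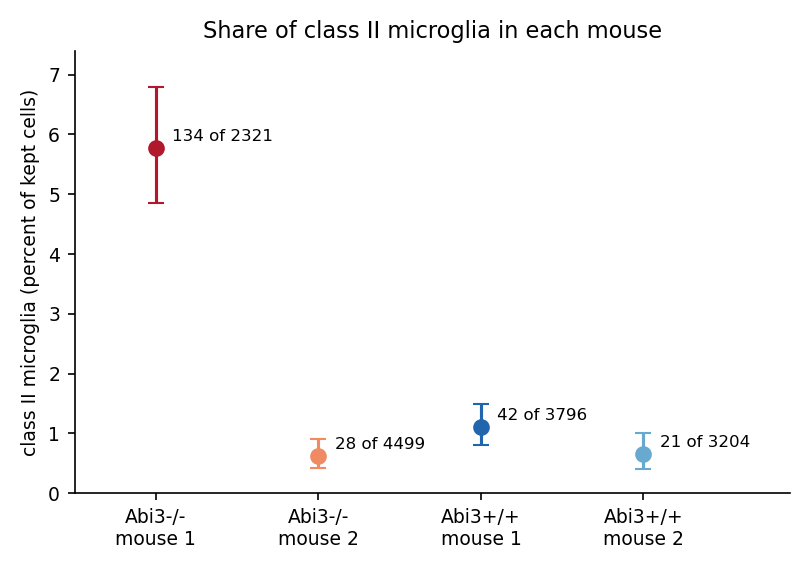
Class II microglia as percent of kept cells in each mouse, with 95% exact binomial intervals (counting error alone) and the number of cells. Abi3-/- mouse 1 lies at 5.77%, and the other 3 mice lie between 0.622 and 1.11%.

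Reads of all class II microglia of a mouse were summed and compared with the sum over the class II-negative microglia of the same mouse, to ask what else the cells carried. Totals for these levels do not count the 7 genes that chose the cells. Of 270 genes tested, 10 rose in class II microglia (3.7%) and 1 fell (0.37%) at an adjusted p under 0.05 (edgeR quasi-likelihood test with mouse as a block), each in the same direction in 4 of 4 mice. H2-Eb1, H2-DMa, H2-K1, Apoe, Itgax, Ifitm3, Cxcl16, Cd52, Cd36 and Clec10a were higher, and Fscn1 was lower. The count depends on the method, with 54 genes at an unadjusted p under 0.05, 73 calls by DESeq2 and 0 by limma, and with 0 to 3 calls when a mouse was left out. So does the balance of directions, with 27 genes higher and 46 lower by DESeq2, and 23 higher and 19 lower with no cell filter. With the 31 cells above 10% class II reads left out, 5 genes were called, all of them higher: H2-Eb1, H2-K1, Apoe, Itgax and Cst7, of which the first 4 were among the 11. Without the 23 cells that carry a macrophage gene 9 genes were called. With the reads scaled by TMM, the median log2 fold change over all genes was -0.39, and it was -0.55 without that scaling.

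H2-Eb1, the I-E β chain that the rule did not use, showed the largest difference among the genes that passed. Its level was 9737, 16524, 18383 and 70263 CPM in class II microglia and 11.4, 8.53, 9.31 and 6.62 in class II-negative microglia. Class II microglia were higher in 4 of 4 mice, and Abi3+/+ mouse 2 was the highest. The log2 fold change was 11.19 ± 0.83 (SE), with an adjusted p of 0.00284, and without the cells above 10% class II reads it was 8.58 (adjusted p = 2.61e-05). By cells, at 10000 reads per cell, H2-Eb1 was read in 79.1, 67.9, 70.7 and 81% of class II microglia. In class II-negative microglia it was read in 0.68, 0.663, 0.492 and 0.497% of cells.
H2-DMa, the α chain of the peptide loader H2-DM, was read in most cells of both classes. Its level was 7469.8, 6165, 6638 and 6601 CPM in class II microglia against 4884, 3750.3, 3528 and 2919.6 in class II-negative microglia, higher in 4 of 4 mice. The log2 fold change was 0.85 ± 0.14 (SE), with an adjusted p of 0.0391, and it fell to 0.17 (adjusted p = 0.737) without the cells above 10% class II reads. H2-DMb2, a β chain of the same loader, was not past the test, with 139.6, 143, 154 and 0 CPM in class II microglia against 172, 163, 172 and 101.3 (adjusted p = 0.647). H2-Ob, the β chain of the H2-O molecule that holds H2-DM back (named after its values were seen), had 569, 612, 701 and 350.5 against 527, 557, 451 and 466 CPM (adjusted p = 0.85). Of these 4 class II genes outside the rule, H2-Eb1 and H2-DMa rose, and H2-DMb2 and H2-Ob did not pass, where 3.7% of all 270 genes rose.
H2-K1, a classical MHC class I heavy chain whose sequence is close to those of other class I genes, so that reads may be shared with them, was read in nearly every cell. It had 48008, 29225, 56211 and 37967 CPM in class II microglia and 21743, 15591, 13512 and 13300 in class II-negative microglia. Every class II value was above every class II-negative value, and the log2 fold change was 1.40 ± 0.23 (SE) (adjusted p = 0.0391; 1.44 (adjusted p = 0.0307) without the cells above 10% class II reads). The other 9 tested genes of class I, costimulation and checkpoint did not pass. Cd86, the ligand that costimulates T cells through CD28, had 2775, 2006, 2372 and 1764 against 2859, 2534, 2893 and 3034 CPM (adjusted p = 0.266). Lgals9 (galectin-9) had a log2 fold change of -0.68 ± 0.18 (SE) (adjusted p = 0.112). The median log2 fold change of this list was -0.26, beside -0.39 over all 270 genes.

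Of 18 tested genes of the interferon list, Ifitm3 and Cxcl16 rose and 16 did not pass, where 3.7% of all 270 genes rose. Ifitm3, an interferon-induced membrane protein that blocks virus entry, had 2133, 1029, 2365 and 2690.2 CPM in class II microglia and 809, 431, 374 and 358 in class II-negative microglia. All 4 mice were higher, with a log2 fold change of 2.06 ± 0.37 (SE) (adjusted p = 0.0391; 1.70 (adjusted p = 0.151) without the cells above 10% class II reads). Cxcl16, a chemokine that also acts as a scavenger receptor, had 1719, 2772, 1959.6 and 3002 against 1033, 984, 812 and 923 CPM, a log2 fold change of 1.30 ± 0.22 (SE) (adjusted p = 0.0391; 0.97 (adjusted p = 0.112) without those cells). Irf7 had 739, 44.6, 1363 and 662 against 313, 173, 175 and 146 CPM (adjusted p = 0.433), lower in Abi3-/- mouse 2 and higher in the other 3 mice. Irf8, a factor that microglia need to develop, had a log2 fold change of -0.20 ± 0.13 (SE) (adjusted p = 0.38), and Tmem173 (STING) one of -0.67 ± 0.19 (SE) (adjusted p = 0.112). The list's median was -0.24.

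Of 16 genes of disease-associated microglia, the state that microglia take up near amyloid plaques, Apoe and Itgax rose, 14 did not pass, and none fell, where 3.7% of all 270 genes rose and 0.37% fell. Counted without a test, 7 of the 16 were higher in 4 of 4 mice, where 11.1% of all 270 genes were, and the list's median log2 fold change was 0.77. Apoe, the lipid carrier of the brain, had 13064, 12256, 9222 and 10385 CPM in class II microglia against 7889, 4067, 3607 and 2055 in class II-negative microglia. The 4 class II values lay close together and above all class II-negative ones, with a log2 fold change of 1.5 ± 0.27 (SE) (adjusted p = 0.0391; 1.34 (adjusted p = 0.0307) without the cells above 10% class II reads). Itgax (CD11c), an integrin chain of activated microglia and dendritic cells, had 2819, 10885, 2073 and 3589 against 1009, 1429, 835 and 1461 CPM. Abi3-/- mouse 2 was the highest, and the log2 fold change was 1.74 ± 0.31 (SE) (adjusted p = 0.0391; 1.95 (adjusted p = 0.0307) without those cells).
Cst7 had 9764, 27269, 17005 and 6572 against 4377, 7119, 5333 and 5319 CPM, higher in 4 of 4 mice but least so in Abi3+/+ mouse 2. It did not pass over all 225 cells, with a log2 fold change of 1.27 ± 0.28 (SE) and an adjusted p of 0.0845, and passed without the cells above 10% class II reads, with 1.58 (adjusted p = 0.0243). Lyz2, lysozyme, had 15059, 34050.1, 27767 and 94894 against 12081, 11220.5, 5636 and 8534 CPM (adjusted p = 0.112). Lgals1 (galectin-1) had 156, 739, 1997 and 2479 against 141, 153, 194 and 421 (adjusted p = 0.112). Both are also high in macrophages, and both were highest in Abi3+/+ mouse 2, whose cells most often carried a macrophage gene. The part of such cells in these levels was not tested. Ctsd, the lysosomal protease cathepsin D, had a log2 fold change of -0.02 ± 0.34 (SE) (adjusted p = 0.972), and Fth1, the ferritin heavy chain, one of 0.54 ± 0.20 (SE) (adjusted p = 0.21).

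None of 13 genes of homeostatic microglia passed the test. Of them 7 were lower in 4 of 4 mice, where 30.7% of all 270 genes were, and 0 were higher in 4 of 4. Cx3cr1 had 5338, 2934, 3429 and 2489 CPM in class II microglia against 6676, 5751, 8036 and 3596 (log2 fold change -0.76 ± 0.18 (SE), adjusted p = 0.0982). Selplg had 41913, 12833, 19933 and 6010.3 against 49149, 31258, 42753 and 29597 (adjusted p = 0.112). Abi3-/- mouse 1, which gave most of the class II microglia, was nearest to its class II-negative microglia in both genes. The complement genes C1qa and C1qb did not pass, with log2 fold changes of -0.04 ± 0.19 (SE) and -0.04 ± 0.17 (SE) (adjusted p = 0.929 and 0.897).
Outside these lists, Cd52, a small surface glycoprotein of leukocytes, had 3841, 5436, 7282 and 4187 against 2444, 3547, 3138 and 2352 CPM (log2 fold change 0.83 ± 0.14 (SE), adjusted p = 0.0391). Cd36, a scavenger receptor that binds amyloid and oxidized lipid, had 148, 434, 508 and 207 against 2.38, 3.29, 5.12 and 16.3 CPM (log2 fold change 5.89 ± 1.01 (SE), adjusted p = 0.0391), from 8, 3, 4 and 3 cells with a read. Clec10a, a lectin of macrophages and dendritic cells and one of the macrophage genes, had 41.9, 66.2, 396 and 865 against 3.11, 0.491, 3.81 and 16.1 (log2 fold change 5.86 ± 0.99 (SE), adjusted p = 0.0391), from 1, 1, 3 and 7 cells. Without the cells above 10% class II reads, none of Cd52, Cd36, Clec10a and Fscn1 passed. Fscn1, the actin bundler fascin, was the gene that fell, with 3988, 2965, 2721 and 1351 against 5169, 5695, 5201 and 2959 CPM (log2 fold change -0.85 ± 0.16 (SE), adjusted p = 0.0447).
No gene passed among 8 immediate early genes, 10 inflammatory cytokine and chemokine genes and 9 cycling genes. Counted without a test, 4, 4 and 7 of these genes were lower in 4 of 4 mice and 0 were higher, where 30.7 and 11.1% of all 270 genes were. Egr1 had a log2 fold change of -0.53 ± 0.15 (SE) (adjusted p = 0.112) and Dusp1 one of 0.12 ± 0.23 (SE) (adjusted p = 0.749). Il1a had 1429, 1197, 1699.6 and 1207 against 1698, 1869.8, 2632 and 3068 CPM (adjusted p = 0.128), and Ccl9 had a log2 fold change of -0.20 ± 0.20 (SE) (adjusted p = 0.575). Of the cycling genes, Top2a was at 0 in the class II microglia of all 4 mice and had 20.1, 132, 68.7 and 105 CPM in class II-negative microglia (adjusted p = 0.145). The part of the lower number of cells in this count of 0 was not tested. Pcna had a log2 fold change of -0.40 ± 0.22 (SE) (adjusted p = 0.346) and Mcm4 one of -0.63 ± 0.62 (SE) (adjusted p = 0.575).

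**Figure D4:**
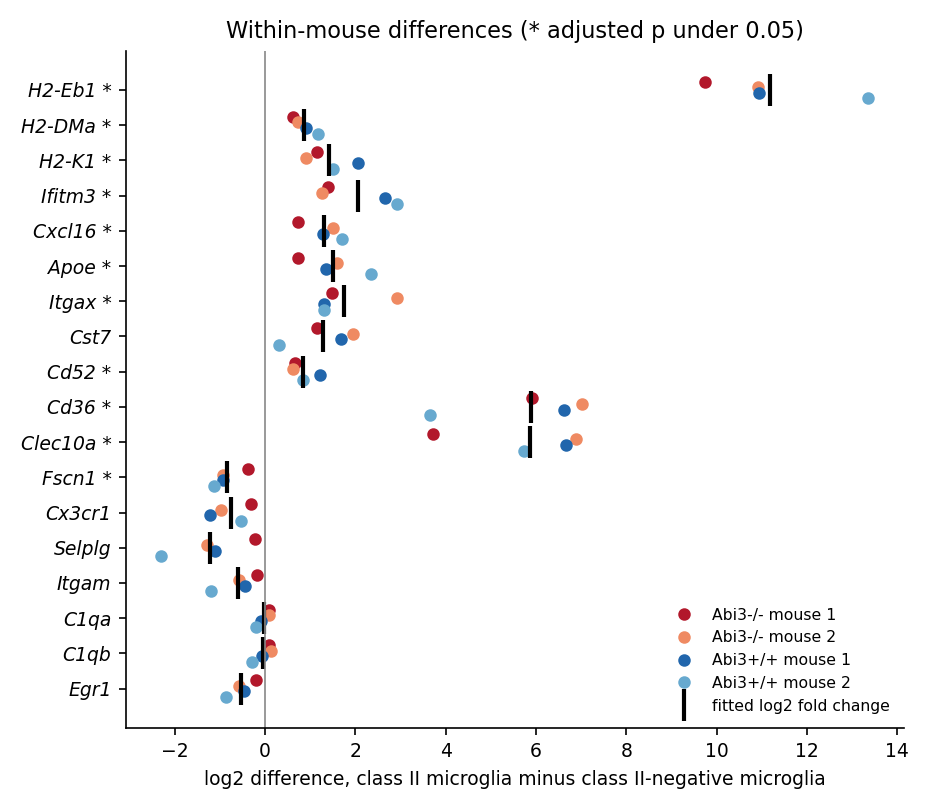
Log2 difference in level between class II microglia and class II-negative microglia of the same mouse for 18 genes (1 point per mouse, black bar for the fitted log2 fold change, asterisk for an adjusted p under 0.05). H2-Eb1 lies to the right by 9.73 to 13.36 in the 4 mice, and the points of C1qa and C1qb lie between -0.30 and 0.13.

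Trem2-positive cells were also arranged by how many of the 3 class II genes they had a read of, with no test, to see where cells just outside the rule stood. At 10000 reads per cell, H2-Eb1 was read in 3.93, 1.17, 6.01 and 2.97% of cells with 1 class II gene, 40, 7.63, 29.5 and 6.67% with 2 and 79.1, 67.9, 70.7 and 81% with all 3. Apoe was read in 69, 45.4, 34 and 33% of cells with none, 78, 65.1, 56.9 and 61% with 1, 81.2, 86.4, 70.5 and 60% with 2 and 82.1, 82.1, 70.7 and 85.7% with 3. With 2 class II genes the share with Apoe was above that with 3 in Abi3-/- mouse 2 and below that with 1 in Abi3+/+ mouse 2. Cst7 was read in 36.4, 37.9, 22 and 23.9% of cells with none, 47.5, 62.4, 51.2 and 57.2% with 1, 61.2, 81.4, 60.7 and 66.7% with 2 and 52.2, 75, 63.4 and 23.8% with 3. In Abi3+/+ mouse 2 the share with Cst7 was high in cells with 1 or 2 class II genes and low in cells with all 3. Ifitm3 was read in 18.7, 13.9, 15.5 and 12.3% of cells with 1 and 38.1, 25, 36.6 and 47.6% of cells with 3. Median reads per cell, before thinning, were 23724, 18527, 19162 and 22273 with none and 30297, 33144, 27194 and 34728 with 2 class II genes, and the part of depth in these shares beyond the thinning was not tested.

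**Figure D5:**
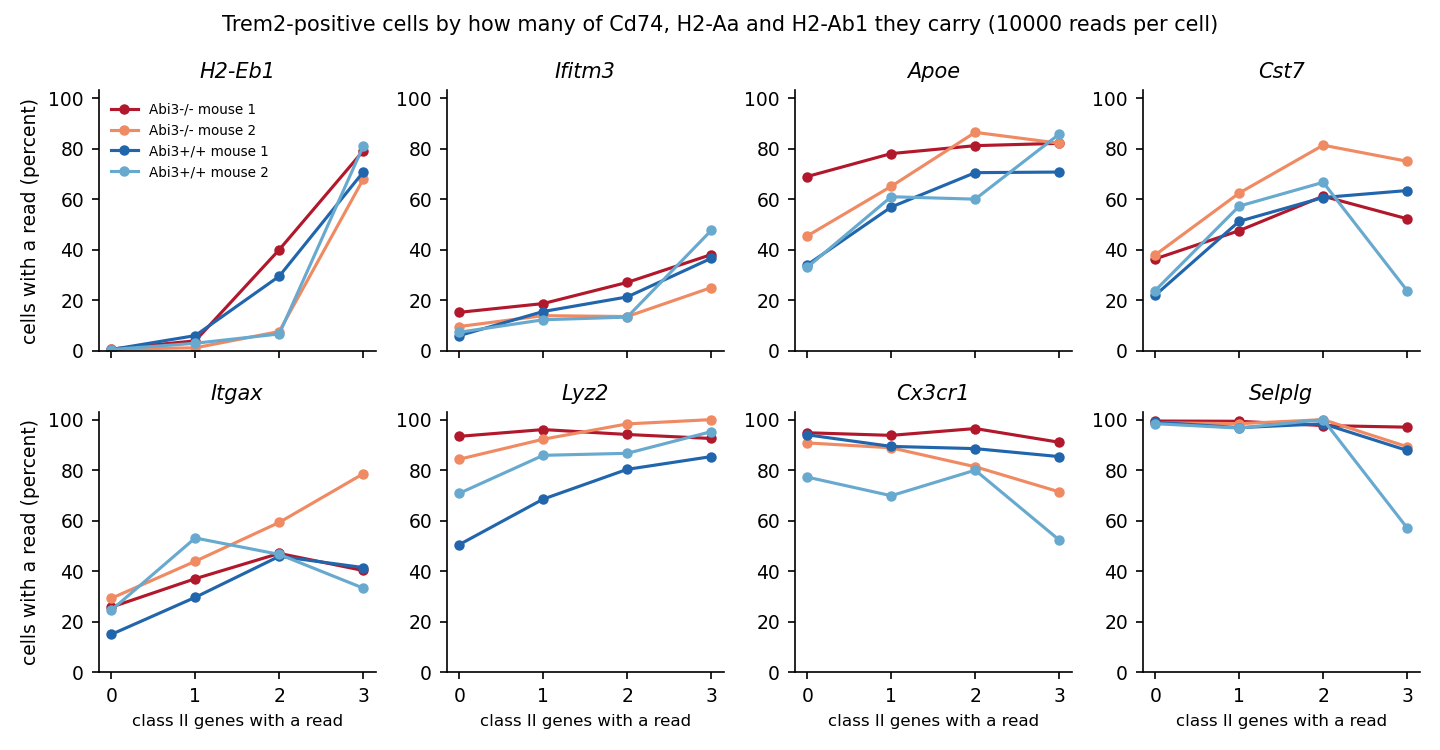
Percent of Trem2-positive cells with a read of 8 genes (panels) by the number of Cd74, H2-Aa and H2-Ab1 read in the cell, at 10000 reads per cell, with 1 line per mouse. Apoe and Cst7 are already higher with 1 class II gene in 4 of 4 mice, while H2-Eb1 stays at or below 6.01% there.

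The comparison with macrophages asked how far class II microglia stood from cells with macrophage genes, some of which also carry class II. Of these macrophages, 50, 50, 78.3 and 54.2% had a read of 2 or more of the 9 dendritic cell genes. Flt3 and Clec10a of that list were also among the genes that chose them. The class may therefore hold dendritic cells as well, and their part in the differences below was not tested. Of 235 genes tested, with the macrophage genes also left out, 35 were higher (14.9%) and 37 lower (15.7%) in class II microglia (edgeR, adjusted p under 0.05). C1qa, C1qb and Cx3cr1 were among the genes that were higher, and H2-DMa, H2-DMb2, Lgals1 and Lgals3 among those that were lower. Without TMM scaling 28 genes were higher and 45 lower. Leaving out 1 mouse at a time moved the count from 72 to between 25 and 58 calls, and a limit of 40000 reads per cell to 6.
H2-DMa was lower in class II microglia, with 7541, 6412, 7008 and 7643 CPM against 22728, 12181, 18355 and 10615 in macrophages (log2 fold change -1.10 ± 0.27 (SE), adjusted p = 0.0347). H2-DMb2 was lower too, with 141, 149, 163 and 0 against 5013, 2798, 4331 and 1662 (log2 fold change -5.49 ± 1.16 (SE), adjusted p = 0.0277). H2-Eb1 had 9829, 17186, 19408 and 81349.9 against 130534, 103163, 140839 and 67704 CPM and did not pass (log2 fold change -2.33 ± 0.78 (SE), adjusted p = 0.0832). It was lower in 3 mice and higher in Abi3+/+ mouse 2, and it passed without the cells above 10% class II reads, at -4.78 (adjusted p = 0.00457). H2-K1, by contrast, did not pass, with 48465, 30395, 59345 and 43957 against 56417, 40774, 50589 and 32708 CPM (adjusted p = 0.998).
Of 12 tested genes of homeostatic microglia 8 were higher and none lower in class II microglia, with a list median of 1.29 beside -0.25 over all genes tested. C1qa had 85615, 68864, 68982 and 74215 CPM in class II microglia and 15326, 7823, 5630.4 and 17587 in macrophages (log2 fold change 2.83 ± 0.36 (SE), adjusted p = 0.012). C1qb had a log2 fold change of 2.66 ± 0.39 (SE) (adjusted p = 0.012) and Cx3cr1 one of 2.98 ± 0.35 (SE) (adjusted p = 0.012). Of 16 genes of disease-associated microglia 7 were higher (Apoe, Cst7, Ctsd, Cd63, Cd9, Ccl3 and Ccl4) and 3 lower (Lgals3, Lyz2 and Lgals1), with a list median of 1.21. Over all 235 genes tested, 14.9% were higher and 15.7% lower. Cst7 had 9856, 28361, 17954 and 7609 CPM in class II microglia and 0, 115, 236 and 110.1 in macrophages, the largest rise among the genes that passed (log2 fold change 7.63 ± 1.38 (SE), adjusted p = 0.0199). Ctsd had 247559, 408329, 319968 and 153765 against 13884, 13617, 12141 and 14651 (log2 fold change 4.30 ± 0.42 (SE), adjusted p = 0.00981).
The other genes with the largest rises included Cd34, a sialomucin, with 8279, 10072, 6379.6 and 5683 against 41.1, 459, 235 and 0 CPM. They also included the chemokines Ccl4 (log2 fold change 6.28 ± 1.60 (SE)) and Ccl3 (5.93 ± 1.42 (SE)), Fscn1 (5.42 ± 1.30 (SE)) and Lag3, an inhibitory receptor that binds class II (6398, 6588, 5117 and 1286 against 206, 24.1, 535 and 37.5 CPM), with adjusted p-values from 0.0196 to 0.0397 in edgeR. In each of these 5 genes all 4 class II values were above all 4 macrophage values, the lowest being those of Abi3+/+ mouse 2 for Cd34, Ccl4, Fscn1 and Lag3.
Among the genes that were lower, Chil3, a chitinase-like protein of monocytes, had 0 reads in all class II microglia and 1168, 38159.8, 3297 and 7233 CPM in macrophages. Dpp4 had 0 against 1182, 1084, 1479.6 and 729.7, the dendritic cell chemokine Ccl17 0 against 197, 3713, 3129.9 and 32.5 and Fcrla 0 against 683, 155, 667 and 2099. Chil3, Dpp4, Ccl17 and Fcrla thus reached the test through the reads of macrophages alone. A read of Ccr2 kept a cell out of class II microglia but helped to choose macrophages. The part of this choice in the genes that were lower was not tested. Klrk1 (NKG2D) had 10 reads in class II microglia, all in 1 mouse, and 849, 502, 416 and 447 CPM in macrophages. Ifitm3, which was above its level in class II-negative microglia, was below that in macrophages, with 2153, 1071, 2497 and 3115 against 24307, 28596, 17145 and 17110.5 CPM (log2 fold change -3.35 ± 0.47 (SE), adjusted p = 0.012). Lyz2 (log2 fold change -2.02 ± 0.48 (SE)), Itga4, the α4 integrin of circulating cells (-4.44 ± 0.89 (SE)), and Ccl9 (-2.84 ± 0.25 (SE)) were lower as well, with adjusted p-values of 0.0341, 0.0252 and 0.00867.

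Within class II microglia, the genotypes were compared over 224 genes. No gene passed at an adjusted p under 0.05 (0%) in edgeR, with 13 genes at an unadjusted p under 0.05, 9 calls by DESeq2 and 0 by limma. The class II microglia of the genotypes did not overlap in 35.7% of the genes. An exact test of 2 against 2 mice gives each of these genes no p under 0.33, which is also the share of genes that would separate with no change. Of the 5 genes with the smallest p, all but Ifitm2 rested on few cells and were at 0 reads in both mice of a genotype. Spp1 (osteopontin) had 609, 1796, 0 and 0 CPM (adjusted p = 0.306). It was read in 16 of 134 and 5 of 28 cells of the Abi3-/- mice and in 0 of 42 and 0 of 21 cells of the Abi3+/+ mice, where counts of 0 (3 cells taken as the limit, for counting error only) allow shares of cells with a read of up to 7.14 and 14.3%. These limits do not bear on cells that carry the transcript without a read of it. Class II-negative microglia with Spp1 were 6.82, 2.51, 1.16 and 1.66%, at full depth. Il1b (interleukin-1β) had 225, 332, 0 and 0 CPM (adjusted p = 0.432), read in 10, 4, 0 and 0 cells. The 2 Abi3+/+ mice were thus at 0 for both genes, with 63 cells between them.
Ifitm2 had 216, 102.9, 945 and 2880.1 CPM (log2 fold change of Abi3-/- against Abi3+/+ -3.58 ± 0.83 (SE), adjusted p = 0.432) and was read in 14, 2, 11 and 13 cells. Macrophages also carried it, with 7062, 12704, 6127 and 13813 CPM, and the mouse with the highest value was the one whose cells most often carried a macrophage gene. The part of such cells in the values of Ifitm2 was not tested. Cd38 and Cxcl2 were at 0 in the Abi3-/- mice and were read in 1 and 3 cells and in 1 and 1 cells of the Abi3+/+ mice (adjusted p = 0.432 for each).
The difference between class II and class II-negative microglia was not shown to differ between genotypes for any of 307 genes (0%) in edgeR, with 15 genes at an unadjusted p under 0.05, 11 calls by DESeq2 and 0 by limma. The smallest p belonged to Spp1 and Ifitm2 (adjusted p = 0.36 for each), Ccr1 (0.425), and Il1b and Ifitm3 (0.547 for each). Without the cells that carry a macrophage gene Spp1 alone passed in edgeR (adjusted p = 0.0187; from 6.65e-07 to 1 over 17 alternatives, of which 3 passed), a call that rests on counts of 0 in the 36 and 9 class II microglia left in the Abi3+/+ mice. Ccr1, a chemokine receptor of myeloid cells, differed on the log2 scale by 0.29 and 0.13 for the Abi3-/- pair, class II microglia being higher, against 3.57 and 2.98 for the Abi3+/+ pair. Ifitm3 was higher by 1.39 and 1.06 in the former and 2.72 and 2.88 in the latter. Both genotype tests rested on 2 mice per genotype and 2 residual degrees of freedom.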

How the data were processed

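Cells of 4 brains (1 library per mouse, 2 per genotype) were read with a targeted panel on the BD Rhapsody platform. The deposited counts are reads per cell and gene, adjusted by the authors' pipeline for amplification and sequencing errors (DBEC) and not counts of molecules. The build in the submitters' notes is mm10. Cells with fewer than 40 genes or more than 59300 reads were left out, after the study's limits (stated there as unique reads; genes were used here), which kept 13820 of 21172. No doublet caller was run. The upper limit removes some doublets, and an alternative leaves out class II microglia with 2 or more markers of another cell type.

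Reads were summed per mouse and cell class and tested with edgeR 4.0.16 (quasi-likelihood, TMM, default filter on low counts, mouse as a block within mice) in R 4.3.3, with Benjamini-Hochberg adjustment over all genes tested and a threshold of 0.05. The 7 genes of the rule were left out. DESeq2 1.42.0 and limma 3.58.1 were alternatives. Shares over mice were compared by exact permutation (two-sided) with scipy 1.17.1. Replicates are separate mice. Cells were thinned to 10000 reads for the shares of cells that are given at that depth, and the other shares are at full depth. The 95% intervals are exact binomial. The test was checked on simulated data. Genes named are the other class II genes, up to 10 genes per direction (6 against macrophages) with the largest change among those called in 4 of 4 mice, the 2 most abundant of each list, and for genotype the 5 smallest p. Some further genes of the lists were named after their values were seen. The cells, gene lists and rules were chosen with earlier results of these data known. Some genes of these lists are not reported here.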

Additional observations from a re-analysis of the deposited data

Results flagged for a closer look

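For 9 of 41 named genes, class II microglia differed from class II-negative microglia in one direction in both Abi3-/- mice and in the other direction in both Abi3+/+ mice. Of the 307 genes in the fit that tests this difference, 21 showed such directions. Under the scaling of that fit 6 of the 9 were opposite, and C1qa, C1qb and Ccl9 were not. The 41 genes include those named for a small p between genotypes, so these counts are not compared. Over all class II microglia, none of the 9 passed the test in edgeR (the interaction of cell class and genotype, adjusted over 307 genes). Spp1 had an adjusted p of 0.360 and Ifitm2 one of 0.360, and Il1b and Cd38 had 0.547 each. The adjusted p was 1 for C1qa, 1 for C1qb, 1 for Ccl9, 1 for Lck and 1 for Mbp. Without the cells that carry a macrophage gene, Spp1 was past the threshold, with an adjusted p of 0.0187 (from 6.65e-07 to 1 over 17 alternatives). Spp1, Il1b and Lck were at 0 reads in the class II microglia of both Abi3+/+ mice, and Cd38 in those of both Abi3-/- mice. In Abi3+/+ the shares of class II-negative microglia with Spp1 were 1.16 and 1.66%, so that 0 of 36 and 0 of 9 class II microglia (without macrophage genes) do not show a fall.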

How the results depend on the processing

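The share of class II microglia kept its direction except without Abi3-/- mouse 1, and leaving out 1 mouse at a time gave differences from -0.259 to 4.89 percentage points. The difference in the median share of class II reads, a description of genes that chose the cells (-11.6 points), reversed to 0.0537 without cells carrying 2 or more markers of another type and to 0.596 without cells carrying a macrophage gene, and ranged from -23.6 to 0.507 when a mouse was left out. The 11 calls against class II-negative microglia became 73 with DESeq2, 0 with limma, 1 without TMM, 42 with no cell filter, 1 with at most 40000 reads per cell, 1 with at least 50 reads of each class II gene, 5 without cells above 10% class II reads, and 0 to 3 with a mouse left out. The 72 calls against macrophages became 120 with DESeq2, 6 with at most 40000 reads and 25 to 58 with a mouse left out. The 0 calls between genotypes became 9 with DESeq2, 1 (Cd163) without cells above 10% class II reads and 0 to 4 with a mouse left out. The 0 calls of the interaction became 11 with DESeq2, 1 with at least 50 reads and 1 (Spp1) without cells carrying a macrophage gene. Against class II-negative microglia, Clec10a reversed to -9.79 without cells carrying a macrophage gene, since it is one of those genes. Against macrophages Irf8 reversed to 1.63 with limma and Mbp to 0.0783 with at most 40000 reads. For the other reversals and changes of count the cause was not tested. With a replicate block on the mouse numbers of the labels, the genotype comparison had 0 calls, and the differences in share (2.32 points) and class II reads (-11.6 points) were the same; deviations of same-numbered mice correlated at -0.00916, so the numbers were not taken as pairs. The alternatives without cells carrying a macrophage gene or above 10% class II reads were chosen after seeing the data.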

Other observations

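Outside the rule, cells with all 3 class II genes and no read of Trem2 numbered 15, 30, 19 and 27 in Abi3-/- mice 1 and 2 and Abi3+/+ mice 1 and 2. Cells with all 3 class II genes, Trem2 and a read of Ccr2 numbered 9, 12, 7 and 8.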
